A study of Mus musculus with 18 samples.

Results

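The overlapping AID hotspots of the VH186.2 heavy chain segment were described, which are the sites with the motif WGCW (W stands for A or T). They were chosen as all positions that the deposited mutation lists mark with this motif, which gave 24 of the 276 positions listed, the G and the C of 12 motifs. VH186.2 is the name used for IGHV1-72*01 (Ighv1-72 in RefSeq), the V segment that most antibodies of C57BL/6 mice against the hapten NP carry. Spleens of 18 age-matched C57BL/6 mice were taken on day 10 after 1 intraperitoneal immunization with NP(33)-CGG on alum, and VH186.2 cDNA was amplified and sequenced. The dose was 200 µg by the protocol, while a sample label gives the same number in mg.

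The genotypes were Exo1+/+ (wild type, 7 mice), Exo1DA/DA (8 mice) and Exo1-/- (3 mice). Exo1DA is a knock-in allele made with CRISPR/Cas9 in C57BL/6 zygotes that puts an alanine in place of an active site aspartate of the nuclease, so that the protein is present without nuclease activity, and Exo1-/- mice carry the null allele. Both alleles are present in all cells of the animal, not in B cells alone, and the deposited lists hold no measure of Exo1, so the genotypes are taken here from the labels. Mice are named here by the dataset numbers of the lists, which are not tied to the mouse numbers of the labels. Values are percent of the mutated clones of a mouse that carry a change at a position. A clone is a CDR3 clone represented by 1 randomly drawn sequence, and levels below that of a single clone come from sequences drawn in some of the 1000 repeats only.

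AID, the enzyme that starts somatic hypermutation, deaminates C to U in single-stranded DNA and prefers a C that follows A or T and then a purine (WRC). The motif WGCW reads the same on both strands, so it holds 1 preferred C on each strand, and a change at its G records a deamination of the C of the opposite strand. Replication over the U gives the transitions G to A and C to T, removal of the U leads to transversions as well, and mismatch repair, in which the exonuclease EXO1 acts, opens a gap around the lesion that is filled by an error-prone polymerase and yields changes at neighbouring A:T pairs.

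Of the 12 motifs, 11 are printed below in 5′ to 3′ direction of the coding strand, with the motif in capitals and the nucleotide numbers of its G and C in IGHV1-72*01 as the name, since position in the codon and neighbours are what sets them apart. The letters are the germline bases given in the mutation lists.
Motif 30/31: tggggctgAGCTtgtgaagc
Motif 65/66: gtccTGCAaggcttct
Motif 92/93: ccttcaccAGCTactggatg
Motif 102/103: ctactggaTGCActgggtga
Motif 114/115: ctgggtgaAGCAgaggcctg
Motif 197/198: agttcaagAGCAaggccaca
Motif 230/231: aaccctccAGCAcagcctac
Motif 243/244: agcctacaTGCAgctcagca
Motif 246/247: ctacatgcAGCTcagcagcc
Motif 251/252: tgcagctcAGCAgcctgaca
Motif 289/290: tattattgTGCAaga

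The letters of the motif were AGCT in 4 cases, AGCA in 4 and TGCA in 4. Motifs 243/244 and 246/247 overlap by an A, and the letters of motif 251/252 start 2 bases further on. By the borders of IMGT, 3 motifs lay in framework 1, 1 in CDR1 (92/93), 2 in framework 2, 5 in framework 3 and 1 at the start of CDR3 (289/290), while CDR2 held 0. The 4 motifs 92/93, 197/198, 230/231 and 251/252 are the serine codons AGC (codons 31, 66, 77 and 84), in which a change of G to A replaces serine by asparagine and a change of C to T is silent.

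The mutated clones numbered 911.0, 617.9 and 410.7 for Exo1+/+, Exo1DA/DA and Exo1-/-, with 21.0 to 323.9 per mouse. A single clone was therefore worth 4.76% in mouse 300 (Exo1DA/DA) and 0.309% in mouse 285 (Exo1+/+), and intervals of shares cover counting error only. Mice differed in their clonal make-up. In mouse 301 (Exo1DA/DA) 93.0% of the mutated clones carried the same WGCW changes, at nucleotides 114 and 289, and in mouse 300 (Exo1DA/DA) 45.5% carried changes at 114 and 251, whereas the most frequent pattern made up 3.55% to 17.8% in the other 16 mice. Sequences with at least 6 mutations that were nearly the same in another mouse made up 20.1%, 43.1% and 25.7% of the clones of Exo1+/+, Exo1DA/DA and Exo1-/- mice and held 53.0%, 57.8% and 32.7% of their WGCW changes. The named levels and calls were therefore also computed without single mice, without such sequences and with each lineage or each distinct set of mutations counted 1 time.

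In the means of all 3 genotypes the WGCW positions were the most mutated class of G:C positions. They are 16.4% of the 146 G:C positions, and the share of G:C changes that fell on them was 42.3% ± 9.71 (SD, n = 7), 45.4% ± 11.0 (n = 8) and 54.8% ± 7.24 (n = 3) for Exo1+/+, Exo1DA/DA and Exo1-/-. The mean level per WGCW position was 6.52% ± 2.29, 10.2% ± 3.76 and 11.2% ± 9.40 in the same order. At the 19 hotspot positions of the motifs WRC and GYW (its reverse complement) outside WGCW the levels were 3.87% ± 1.48, 6.87% ± 2.57 and 4.45% ± 3.47. The WGCW level of a mouse was above this level in 15 of 18 mice, and below it in mouse 284 (3.29% against 4.85%), mouse 299 (4.10% against 6.02%) and mouse 301 (8.41% against 10.3%). At the remaining 103 G:C positions they were 1.33% ± 0.409, 1.52% ± 0.590 and 1.08% ± 0.476, below the WGCW level in each of the 18 mice.

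Each mutated clone carried 1.57 ± 0.549 WGCW changes in Exo1+/+ mice, with a lowest value of 0.789, a median of 1.66 and a highest of 2.22. In Exo1DA/DA mice the mean was 2.44 ± 0.901, with 0.985, 2.75 and 3.45 as the lowest, median and highest values. The Exo1-/- mice 293, 294 and 295 had 2.05, 5.18 and 0.805. The groups overlapped, and the Exo1DA/DA mouse had the higher value in 44 of 56 pairs with an Exo1+/+ mouse. At the WRC and GYW positions outside WGCW the level per position was higher in 50 of 56 such pairs. The mean of Exo1-/- was 1.11 above that of Exo1+/+ mice with mouse 294 and 0.139 below it without this mouse, so it gave no direction. The mean of Exo1DA/DA was 0.876 above that of Exo1+/+ mice, and 0.457 above it with each lineage, 0.552 with each distinct set of mutations counted 1 time. A count summed over the chosen positions was not tested.

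**Figure D1:**
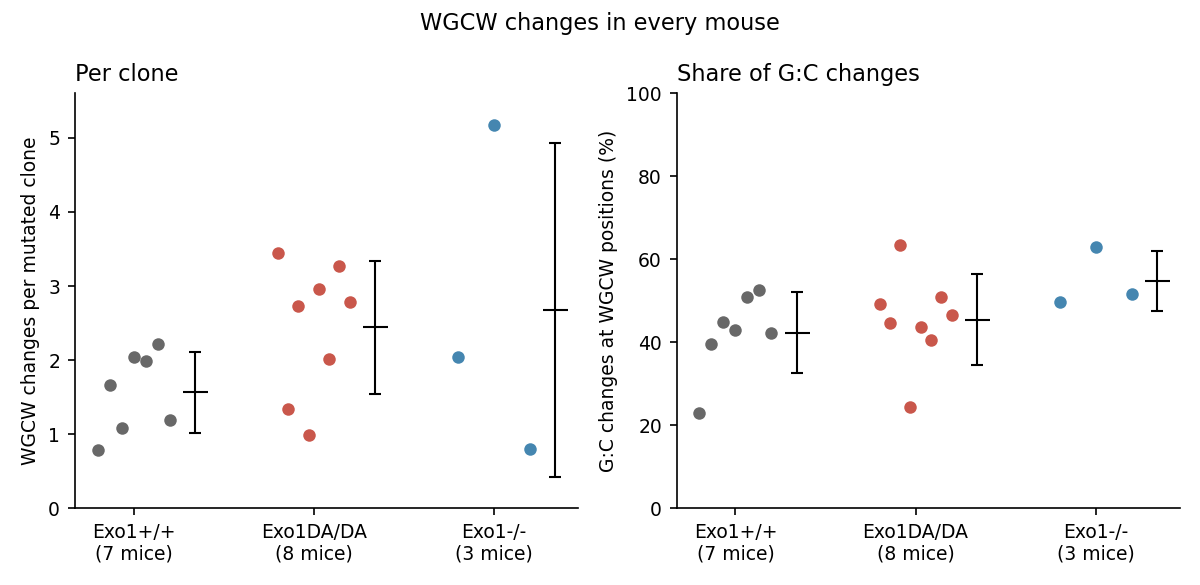
WGCW changes per mutated clone (left axis, number per clone) and share of G:C changes at WGCW positions (right axis, percent), with 1 point per mouse and the mean ± SD beside each genotype. The Exo1-/- mice lie at 2.05, 5.18 and 0.805 changes per clone, so that 1 of 3 mice sets their mean, while the shares of all 18 mice lie between 23.0% and 63.5%.

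Clones often carried several of these changes together. In Exo1+/+ mice 57.3% ± 13.5 of the mutated clones had at least 1 WGCW change and 14.8% ± 9.61 had 4 or more. Among Exo1DA/DA mice these shares were 76.3% ± 22.3 and 25.5% ± 18.6, and in Exo1-/- mice 62.1% ± 32.2 and 37.1% ± 38.5. The highest number in 1 sequence was 11 of the 24, found in mouse 293 (Exo1-/-).

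The A:T pairs at the motif ends, which AID does not deaminate, were changed less in the means of the genotypes than the G and C between them. The mean level at these 23 positions was 1.08% ± 1.22, 0.292% ± 0.313 and 0.141% ± 0.1 for Exo1+/+, Exo1DA/DA and Exo1-/-. At the 107 other A:T positions it was 1.42% ± 0.889, 0.860% ± 0.430 and 0.687% ± 0.443. The motif ends of Exo1+/+ mice ranged from 0.0760% to 3.14%, the highest being mouse 284, whose WGCW positions were at 3.29%, and 4 of the 8 Exo1DA/DA mice lay below the lowest of them.

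The site with the highest mean of the 24 in each genotype was the G of motif 114/115 in framework 2, the third base of lysine codon 38, where G to A is silent. In Exo1+/+ mice its level was 20.5% ± 10.3, with 6.03% in the lowest mouse, a median of 26% and 32.5% in the highest. In Exo1DA/DA mice the mean was 36.6% ± 34, with 3.12%, 32.9% and 96.3%, and the highest value came from mouse 301 (95% Wilson interval 90.9% to 98.6%), without which the mean was 28.0%. In mice 293, 294 and 295 (Exo1-/-) it was 29.6%, 87.6% and 5.85%. All 18 mice had this site changed in at least 1% of their clones, and the ranges of the genotypes overlapped. G114A was the leading change, at 15.6%, 25.1% and 35.7% in Exo1+/+, Exo1DA/DA and Exo1-/- mice, and the transversion G114C, which replaces lysine by asparagine, reached 55.2% in mouse 300.

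The C of the same motif, C115, is the first base of glutamine codon 39, and its transition C115T makes a stop codon. It was changed in 3.39% ± 7.79, 0.195% ± 0.521 and 0.00794% ± 0.00569 of the clones of Exo1+/+, Exo1DA/DA and Exo1-/- mice, and the Exo1+/+ mean rested on mouse 285 with 21.0%. In that mouse the change was C115G (glutamine to glutamate), and it came with G114A in 68.0 of its clones. The stop C115T did not exceed 0.0482% in any mouse.

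The levels of the 4 serine codons are described in turn and were not tested against each other. In codon 31 of CDR1, the codon of motif 92/93, the G was changed in 16.9% ± 15.5 of the Exo1+/+ clones, with 0.0270%, 13.5% and 38.9% as the lowest, median and highest mouse. G92 of Exo1DA/DA mice was at 30.1% ± 22.0, with 0.00623%, 38.8% and 55.2%. Values in the Exo1-/- mice were 19.7%, 10.6% and 5.85%. The transition G92A (S31N) and the transversion G92C (S31T) were about as frequent in Exo1+/+ mice, at 8.39% and 7.52%. G92A stood at 24.3% in Exo1DA/DA mice and G92C at 2.86%.

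The C of this codon, C93, was changed in 11.9% ± 7.70 of the Exo1+/+ clones (0.00811%, 13.3% and 24.5%). Exo1DA/DA mice had 8.51% ± 12.2 (0%, 2.96% and 35.1%), and the Exo1-/- mice 0.00141%, 40.5% and 2.42%. The silent C93T led in the means of Exo1DA/DA (7.92%) and Exo1-/- mice (9.85%). In Exo1+/+ mice the transversion C93G (S31R) was at 6.20% and C93T at 5.25%. C93G was found in 4 of the 7 Exo1+/+ mice, with a highest value of 23.7%, in 1 Exo1-/- mouse (7.47%), and in 0 of the 8 Exo1DA/DA mice, a difference of 6.20 points with p = 0.0513 (2-sided exact permutation test, adjusted p = 0.869). The test on absolute differences, added after the data were seen, gave C93G an exact permutation p of 0.0256 (adjusted p = 0.589).

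In serine codon 66 of framework 3 (motif 197/198) the G was changed in 12.2% ± 9.11 of the Exo1+/+ clones, with 0.0920%, 12.1% and 28.3%. Exo1DA/DA mice had 21.9% ± 13.4, with 0.000926%, 27.6% and 38.0%. Of the Exo1-/- mice, in the same order, the levels were 16.9%, 92.0% and 4.72%, and without mouse 294 (95% Wilson interval of its share 88.2% to 94.8%) the mean of the other 2 was 10.8%. Asparagine (G197A, S66N) was the leading product in the mean of each genotype, at 8.03%, 17.1% and 24%, followed by threonine (G197C, S66T) at 3.93%, 4.39% and 13.8%. In Exo1-/- mice this order rested on mouse 294, with 66.5% of G197A and 25.5% of G197C. G197C was the higher in mouse 293 (11.3% against 5.65%) and mouse 295 (4.70% against 0.0164%).

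The C of codon 66, C198, was the WGCW position with the smallest p between Exo1DA/DA and Exo1+/+ mice. Its level was 1.98% ± 3.30 in Exo1+/+ mice, with 0% in the lowest mouse, a median of 0.00262% and a highest value of 7.53%. For Exo1DA/DA mice the level was 11.6% ± 12.6, with 0.00185%, 7.89% and 32.0%. The Exo1-/- mice had 1.41%, 5.51% and 3.51%. The ranges of Exo1DA/DA and Exo1+/+ mice overlapped, 4 of 8 Exo1DA/DA mice lay above the highest Exo1+/+ mouse, and 2 of the 8 were below 0.02%. The difference of 9.58 points had p = 0.0457 (2-sided exact permutation test over 6435 divisions, higher in 46 of 56 pairs), and the adjusted p over all 276 positions was 0.857. Counting absolute differences in place of doubling the smaller tail, a choice added after the data were seen, gave p = 0.0606 in the exact test.

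The call at C198 held under some treatments of mice and clones and was lost under others. It held with ranks in place of levels (exact permutation p = 0.0385), in the first (0.0457) and the last 500 iterations (0.046), and with each distinct set of mutations counted 1 time (0.0252), where the difference was 1.76 in place of 9.58 points. With each mouse left out in turn it was called in 5 of 15 fits and not in the other 10, with an exact permutation p from 0.0198 to 0.0857. The exact permutation p was 0.117 with each lineage counted 1 time, 0.0845 without sequences shared between mice and 0.0914 as a share of all mutations of the mouse. Nearly all of the change was the silent C198T, at 11.1% ± 12.3 in Exo1DA/DA and 1.51% ± 2.84 in Exo1+/+ mice, with p = 0.0311 and an adjusted p of 0.764 in the exact permutation test. The exact permutation p of C198T was under 0.05 with lineages (0.0435) or distinct sets (0.0264) counted 1 time, as a share of mutations (0.0423) and with absolute differences (0.0471), and it was 0.0538 without sequences shared between mice. C198T was carried with G197A in 62.7% of the clones that had it.

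Serine codons 77 and 84 also lie in framework 3. At G230 of codon 77 the means were 9.99%, 9.18% and 8.06% in Exo1+/+, Exo1DA/DA and Exo1-/- mice. Its silent partner C231 was at 5.49% ± 5.71 (0.0162%, 3.45% and 16.3%) in Exo1+/+ and at 6.89% ± 12.7 (0.00370%, 2.75% and 37.6%) in Exo1DA/DA mice, and the Exo1-/- mice had 12%, 37.0% and 4.69%. C231T was 4.52%, 6.89% and 17.9% of the clones.

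At G251 of codon 84 the levels were 5.27% ± 5.81 (0.00876%, 3.02% and 13.7%) in Exo1+/+ and 11.6% ± 28.0 (0.00556%, 1.77% and 80.9%) in Exo1DA/DA mice. In mice 293, 294 and 295 (Exo1-/-) it was 2.82%, 50.0% and 0.0409%. A single mouse set both mutant means, since the Exo1DA/DA mean was 1.73% without mouse 300 (95% Wilson interval of its share 60.0% to 92.3%) and the Exo1-/- mean was 1.43% without mouse 294. Almost all changes were G251A (S84N), at 4.10%, 11.6% and 17.6%.

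**Figure D2:**
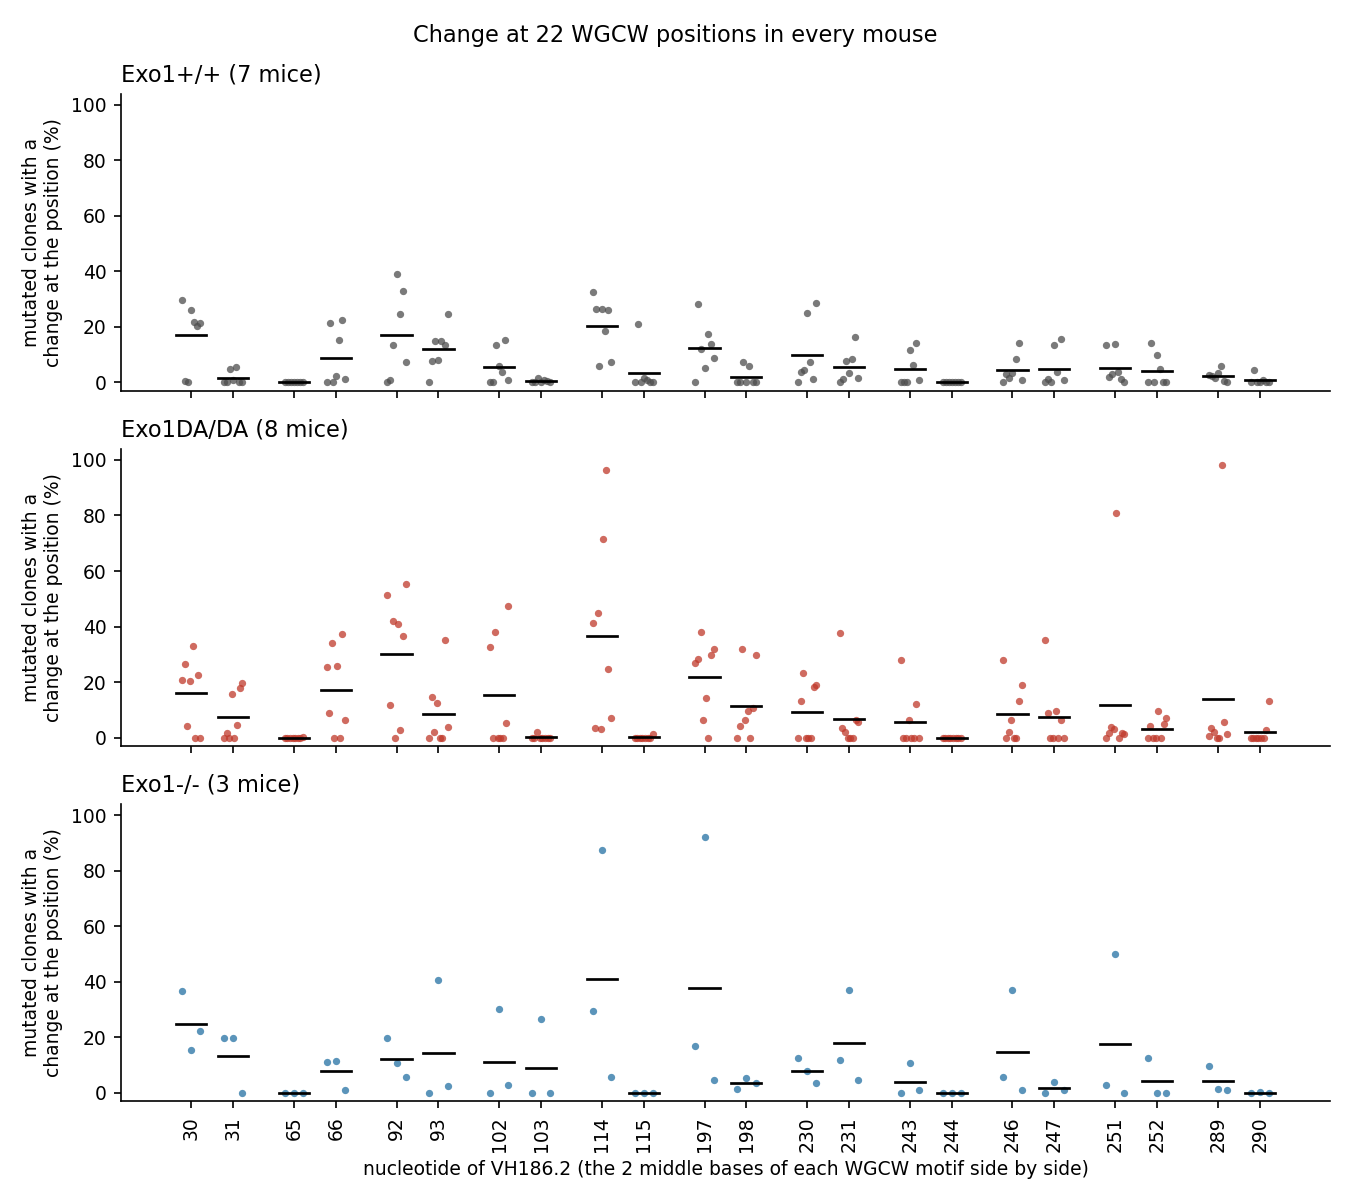
Percent of mutated clones changed (vertical axis) at 22 of the 24 WGCW positions (horizontal axis, nucleotide number), with 1 point per mouse and a black line at the mean of the genotype. Nucleotide 114 is highest in the mean of each panel, the means at 65 and 244 lie at 0.0411% or less, and single mice stand out at 289 (98.1%) and 251 (80.9%) in Exo1DA/DA and at 197 (92.0%) in Exo1-/-.

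In framework 1, motif 30/31 was changed mainly at its G. G30 is the third base of glutamate codon 10, where G to A is silent, and its mean was 17.1% ± 11.9 in Exo1+/+ (0.00301%, 21.5% and 29.8%) and 15.9% ± 12.7 in Exo1DA/DA mice (0%, 20.6% and 32.9%). Values in the Exo1-/- mice were 36.7%, 15.3% and 22.2%. With each distinct set of mutations counted 1 time the means of G30 were 2.02%, 1.99% and 2.33%. G30A made up 17.0%, 13.4% and 24.8%.

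The C of the motif is the first base of leucine codon 11, and C31T gives phenylalanine (L11F). C31 was changed in 1.60% ± 2.46 of the Exo1+/+ clones (0%, 0.0170% and 5.59%) and in 7.41% ± 8.67 of the Exo1DA/DA clones (0%, 3.19% and 19.6%). Of the Exo1-/- mice, in the same order, the levels were 19.8%, 19.9% and 0.00585%. C31T was at 0.928%, 6.44% and 12.5%. The exact permutation p was 0.152 for Exo1DA/DA and 0.1 for Exo1-/- against Exo1+/+ mice.

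Motif 65/66 is the cysteine codon 22, 1 of the 2 cysteines that form the disulfide bond of the V domain. Any change at G65 replaces the cysteine, and G65 was changed in 0.0355% ± 0.0312, 0.0241% ± 0.0365 and 0.0163% ± 0.0167 of the clones in Exo1+/+, Exo1DA/DA and Exo1-/- mice, with a highest mouse of 0.110%. At C66, where C to T is silent, the levels were 8.94% ± 10.4 (0.00451%, 2.30% and 22.6%) in Exo1+/+ and 17.3% ± 15.2 (0.000926%, 17.2% and 37.4%) in Exo1DA/DA mice. In mice 293, 294 and 295 (Exo1-/-) it was 11.3%, 11.4% and 1.19%. C66T was nearly the only change there, at 8.92%, 16.8% and 7.96%, and C66A, which makes a stop codon, was found at 3.62% in mouse 303 (Exo1DA/DA).

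Motif 102/103 lies just past the end of CDR1. G102 is the third base of methionine codon 34, so that each change there gives isoleucine, and it was changed in 5.66% ± 6.34 of the Exo1+/+ clones (0.0622%, 3.70% and 15.2%) and 15.4% ± 20.2 of the Exo1DA/DA clones (0.00185%, 2.68% and 47.2%). Values in the Exo1-/- mice were 0.00282%, 30.3% and 2.76%. G102A was the leading change in Exo1+/+ (5.19%) and Exo1DA/DA mice (15.2%), and G102C in Exo1-/- mice (6.94%), where it came from mouse 294 alone. C103, the first base of histidine codon 35, was under 1% in the means of Exo1+/+ and Exo1DA/DA mice and at 26.7% in mouse 294.

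In the adjoining motifs 243/244 and 246/247 the middle bases span methionine codon 81, glutamine codon 82 and leucine codon 83. G246, where G to A is silent, was changed in 4.48% ± 5.06 of the Exo1+/+ clones (0.00811%, 3.18% and 14.2%) and 8.53% ± 10.5 of the Exo1DA/DA clones (0.00185%, 4.13% and 28.0%). Of the Exo1-/- mice, in the same order, the levels were 5.64%, 37.0% and 1.19%. G246A led in Exo1+/+ (3.68%) and Exo1DA/DA mice (7.50%), and G246C (Q82H) in Exo1-/- mice with 12.8%, which rested on 34.2% in mouse 294. G243A (M81I) and G246A were carried together in 92.0 clones of 8 mice, which was 76.9% of the clones with the first and 75.5% of those with the second change. The 8 mice did not contribute evenly. The levels of the 2 changes were 27.9% and 28.0% in mouse 296 (167.8 mutated clones) and 14.2% each in mouse 289 (190.7). Clones of a mouse can share a lineage, so these are not independent events. C244, whose transition C244T makes a stop codon, did not exceed 0.109% in any mouse.

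At the start of CDR3, G289 is the first base of alanine codon 97, and G289A gives threonine (A97T). It was changed in 2.38% ± 2.0 of the Exo1+/+ clones (0.0167%, 2.47% and 5.98%) and in 13.9% ± 34.1 of the Exo1DA/DA clones (0.0143%, 1.73% and 98.1%). The Exo1-/- mice had 9.88%, 1.58% and 1.20%. The Exo1DA/DA mean was 1.89% without mouse 301 (95% Wilson interval of its share 93.5% to 99.5%). G289A made up nearly all of it, at 2.33%, 13.9% and 4.22%.

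Tested across all 276 positions, 1 of the 24 WGCW positions, C198, had an unadjusted p under 0.05 between Exo1DA/DA and Exo1+/+ mice, beside 14 of all positions, or 5.07%. Of the 24, 0 passed between Exo1-/- and Exo1+/+ mice (smallest exact permutation p = 0.1), where 3 of all positions, or 1.09%, did, and 0 passed between Exo1DA/DA and Exo1-/- mice (smallest p = 0.121), where 1 position, or 0.362%, did. After Benjamini-Hochberg adjustment 0 positions passed in these exact permutation tests, and the counts at the WGCW positions were near these shares. The smallest p the designs allow was 0.000311, 0.0167 and 0.0121. A chi-squared test with Yates' correction, run here at each position on counts pooled over mice, takes every clone as independent. It gave a p under 0.05 at 16, 16 and 17 of the 24 positions. The share it called over all 276 positions is not given here, so these counts say nothing particular to the WGCW positions.

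In the means, 15 of the 24 WGCW positions were higher in Exo1DA/DA than in Exo1+/+ mice, with a median difference of 1.74 points, beside 127 of all 276 positions (46.0%) and a median of -0.00298. Among the 146 G:C positions, WGCW included, 85 were higher, with a median of 0.00341. In Exo1-/- mice 15 of 24 were higher than in Exo1+/+ mice (median 1.67 points), beside 98 of 276 (35.5%) and a median of -0.0180. Of the 146 G:C positions 58 were higher, with a median of -0.00352. Without mouse 294 the WGCW count of Exo1-/- mice was 7 of 24, and the difference changed sign at 8 positions, among them 93, 102, 103, 114, 197, 246 and 251. Leaving out 1 mouse changed the sign at 0 to 4 positions between Exo1DA/DA and Exo1+/+ mice, where the count stayed between 13 and 18. With all mice, the other ways of counting changed signs too. Between Exo1DA/DA and Exo1+/+ mice these were 5 of 24 positions with distinct sets (G197 among them, 5.74% against 6.56%), 8 with lineages counted 1 time (C231 among them, 2.73% against 3.91%, and G246, 3.16% against 3.39%) and 2 without shared sequences (G30 and C252). Between Exo1-/- and Exo1+/+ mice they were 4, 4 (C66 among them, 13.1% against 4.82%) and 3. Both comparisons share the Exo1+/+ mice.

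The order of the 24 positions was similar in the genotypes. The means correlated across the positions with Pearson's r = 0.817 and Spearman's rho = 0.746 between Exo1DA/DA and Exo1+/+, 0.742 and 0.681 between Exo1-/- and Exo1+/+, and 0.71 and 0.613 between the 2 mutants. These values describe 24 positions that lie in the same clones and partly in sequences shared between mice, and they are no test. In these means nucleotides 65 and 244 were among the 3 lowest and 114 was the highest in each genotype.

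The first place of nucleotide 114 changed with the treatment of mice and clones. In Exo1+/+ mice nucleotide 30 was above it without shared sequences (15.5% against 12.4%) and without mouse 285 (19.9% against 19.5%), and nucleotide 92 without mouse 284 (19.8% against 18.5%). Nucleotide 92 was also above it without mouse 285. In Exo1DA/DA mice nucleotide 92 was above it with each lineage counted 1 time (21.9% against 21.8%), without shared sequences (30.1% against 28.6%) and without mouse 301 (34.01% against 28.0%). In Exo1-/- mice nucleotide 197 was above it with lineages (27.6% against 22.9%) or distinct sets (33.8% against 33.4%) counted 1 time, without shared sequences (34.2% against 34.1%) and without mouse 293 (48.4% against 46.7%), and nucleotide 30 without mouse 294 (29.5% against 17.7%).

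Sequences shared between mice carried much of the level at several positions of Exo1+/+ mice. Without them the Exo1+/+ mean was 3.84% in place of 8.94% at C66, 5.86% in place of 12.2% at G197, 2.0% in place of 5.49% at C231, 1.40% in place of 4.48% at G246 and 2.54% in place of 5.27% at G251. It was 3.30% in place of 5.66% at G102. In Exo1DA/DA mice the mean was 3.89% in place of 6.89% at C231 and 4.22% in place of 8.53% at G246.

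With each distinct set of mutations counted 1 time, 29 of 42 mean levels of the 14 positions named by rule were over 1.5 times lower and 0 over 1.5 times higher. G92 was at 2.98% in place of 16.9% in Exo1+/+ and at 10.6% in place of 30.1% in Exo1DA/DA mice. C31 was at 1.36% in place of 7.41% in Exo1DA/DA and at 1.96% in place of 13.2% in Exo1-/- mice. C198 was at 0.266% in place of 1.98% in Exo1+/+ and at 2.02% in place of 11.6% in Exo1DA/DA mice, and G102 at 1.08% in place of 5.66% in Exo1+/+ mice. With lineages counted 1 time 18 of the 42 were over 1.5 times lower and 1 was higher by that factor, and without shared sequences 10 were lower.

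The G of the motif was changed more often than the C. The mean was higher at the G in 10, 10 and 9 of the 12 motifs in Exo1+/+, Exo1DA/DA and Exo1-/- mice, and in the other 11 GC dinucleotides of the amplicon it was higher at the G in 4, 3 and 4. The median of G minus C over the 12 motifs was 4.61, 8.45 and 4.68 percentage points, and over the other dinucleotides -0.00276, -0.0341 and -0.00216. Outside WGCW the G and the C of a dinucleotide are never both in a hotspot motif, so the other dinucleotides are no matched baseline. The G took 70.2% ± 14.9, 69.2% ± 15.9 and 67.8% ± 6.50 of the WGCW changes of a mouse in Exo1+/+, Exo1DA/DA and Exo1-/- mice.

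At motif 114/115 the G was above the C in all 18 mice. It was 17.1 points ± 11.0 in Exo1+/+ mice (p = 0.0156, 2-sided exact sign-flip permutation test within mice, n = 7) and 36.4 points ± 34.2 in Exo1DA/DA mice (p = 0.00781, exact, n = 8), each the smallest p that number of mice allows, with an adjusted p of 0.0898 in both. The Exo1+/+ difference was 3.66 points with distinct sets counted 1 time, 11.5 points with lineages counted 1 time and 11.2 points without shared sequences, and the Exo1DA/DA difference was 30.3, 21.5 and 28.6 points in the same order. At 197/198 it was 10.3 points ± 9.05 (7 of 7 mice) in Exo1+/+ and 10.4 points ± 11.2 (6 of 8) in Exo1DA/DA mice, with p = 0.0156 and 0.0312 in the exact test. Without shared sequences the differences at 197/198 were 4.02 points (p = 0.141) and 5.63 points (p = 0.0625) in the exact test. With each lineage or each distinct set counted 1 time, that of Exo1DA/DA mice was 2.57 points (p = 0.469) or 3.72 points (p = 0.344), while Exo1+/+ mice kept p = 0.0156 in the exact test (6.57 and 6.30 points). In Exo1+/+ mice the G was also called higher at 30/31 (15.5 points, p = 0.0469), 102/103 (5.18 points, p = 0.0312) and 243/244 (4.72 points, p = 0.0469) by the exact test, each in 6 of 7 mice. Without shared sequences 102/103 (3.28 points, p = 0.125) and 243/244 (1.09 points, p = 0.422) were not called in the exact test. With distinct sets counted 1 time 30/31 was at 1.5 points (p = 0.0625), 102/103 at 0.71 points (p = 0.109) and 243/244 at 1.25 points (p = 0.219) in the exact test. With lineages counted 1 time 30/31 was at 6.85 points (p = 0.0781) and 243/244 at 2.59 points (p = 0.0625, exact).

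That made 5 of 12 motifs in Exo1+/+ mice, beside 8 of all 23 dinucleotides, or 34.8%. For Exo1DA/DA mice 3 of 12 were called, beside 5 of 23, or 21.7%, the third being 65/66, where the C was higher by 17.2 points (p = 0.0312, exact sign-flip permutation test). G minus C there was -10.2 points with lineages and -6.36 points with distinct sets counted 1 time, each with p = 0.0312 in the exact test. After Benjamini-Hochberg adjustment over the 23 dinucleotides 0 were called in either genotype. The 3 Exo1-/- mice cannot give a p under 0.25 and were described only, with the G higher in each of them at 102/103, 114/115, 197/198 and 289/290 and the C higher at 65/66.

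No difference of G minus C between genotypes passed the test. Of 36 comparisons of G minus C between genotypes (12 motifs, 3 pairs of genotypes), 0 had p under 0.05 in the exact permutation test, and the smallest was 0.133, at 246/247 between Exo1-/- and Exo1+/+ mice (12.9 against -0.512 points). In the 5 motifs called for a higher G, the transition at the C makes a stop codon in 114/115 and 243/244, replaces an amino acid in 30/31 and 102/103 and is silent in 197/198. In 65/66, called for a higher C, the transition at the C is silent and that at the G replaces the cysteine. The part of the codon in these differences was not tested.

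**Figure D3:**
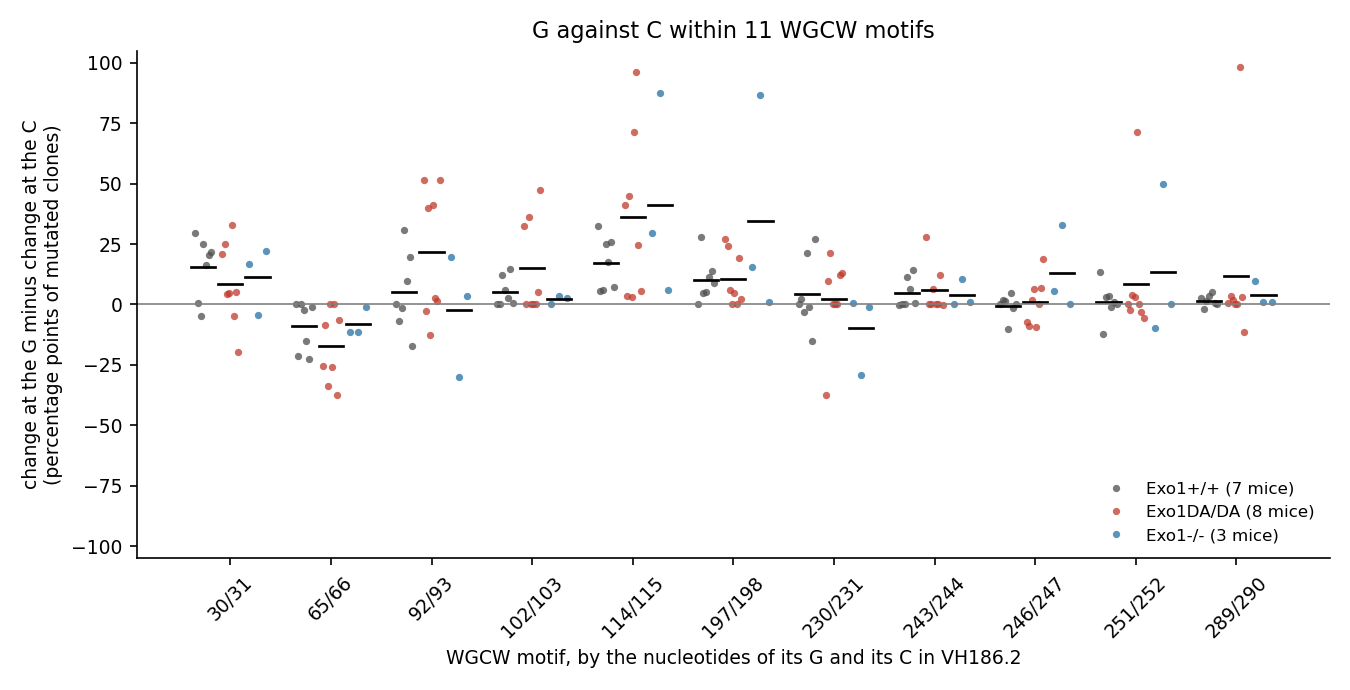
Change at the G minus change at the C of 11 WGCW motifs (vertical axis, percentage points of mutated clones), with 1 point per mouse, colours for the genotypes and a black line at each mean. All 18 points of motif 114/115 lie above 0, and the means of motif 65/66 lie below 0 in each genotype (-8.91, -17.2 and -7.94 points).

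The G and the C of a motif could be changed in the same clone. Over the 12 motifs and 3 genotypes, the number of such clones was above the product of the 2 shares in 9 of 36 cases and below it in 27, given here as a description. Among the cases above it, at 114/115 in Exo1+/+ mice 70.0 clones carried both changes against 15.1, and 68.0 of them were in mouse 285. At 197/198 in Exo1DA/DA mice 42.0 did against 12.5, spread over 4 mice. At 30/31 in Exo1-/- mice 46.0 did against 13.2, of which 33.0 were in mouse 294. Among those below it, 0.006 clones carried both changes at 102/103 in Exo1-/- mice against 13.2, 0 at 92/93 in Exo1-/- mice against 11.8 and 0.194 at 246/247 in Exo1DA/DA mice against 9.20. Clones of a mouse can share a lineage, so that these numbers are not independent events.

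Most WGCW changes were transitions. The transition share of a mouse was 66.8% ± 15.6 in Exo1+/+ mice, with 37.0%, 71.6% and 81.9% as the lowest, median and highest. It was 83.5% ± 11.0 in Exo1DA/DA mice (68.3%, 82.5% and 97.7%), and the Exo1-/- mice had 84.8%, 75.7% and 73.8%. The ranges overlapped, and the Exo1DA/DA mouse was higher in 44 of 56 pairs. At the other G:C positions the share was 63.5% ± 17.6, 83.6% ± 12.5 and 71.7% ± 29.8, so the WGCW positions did not stand apart from them in these means. Within the motifs the share was 67.9%, 82.7% and 79.6% at the G and 66.3%, 76.3% and 79.1% at the C. These shares over the chosen positions were not tested.

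Single base changes were tested across the whole amplicon. Of the WGCW changes, 4 had an unadjusted p under 0.05 between Exo1DA/DA and Exo1+/+ mice, beside 43 of all 758 changes, or 5.67%, and 0 did between Exo1-/- and Exo1+/+ mice, beside 5 of 727, or 0.688%. The 4 were C198T, described above, and G65T, C198A and G251T. The last 3 had means of 0.184% or less in both genotypes, below the level of a single clone in the smaller mice, so they rest on sequences drawn in a few of the repeats or on 1 clone (C198A in mouse 303). With absolute differences C93G was called and C198A was not, the count again being 4, beside 49 of all 758 changes, or 6.46%. After adjustment the smallest p over the WGCW changes was 0.721 in the exact permutation tests.

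**Figure D4:**
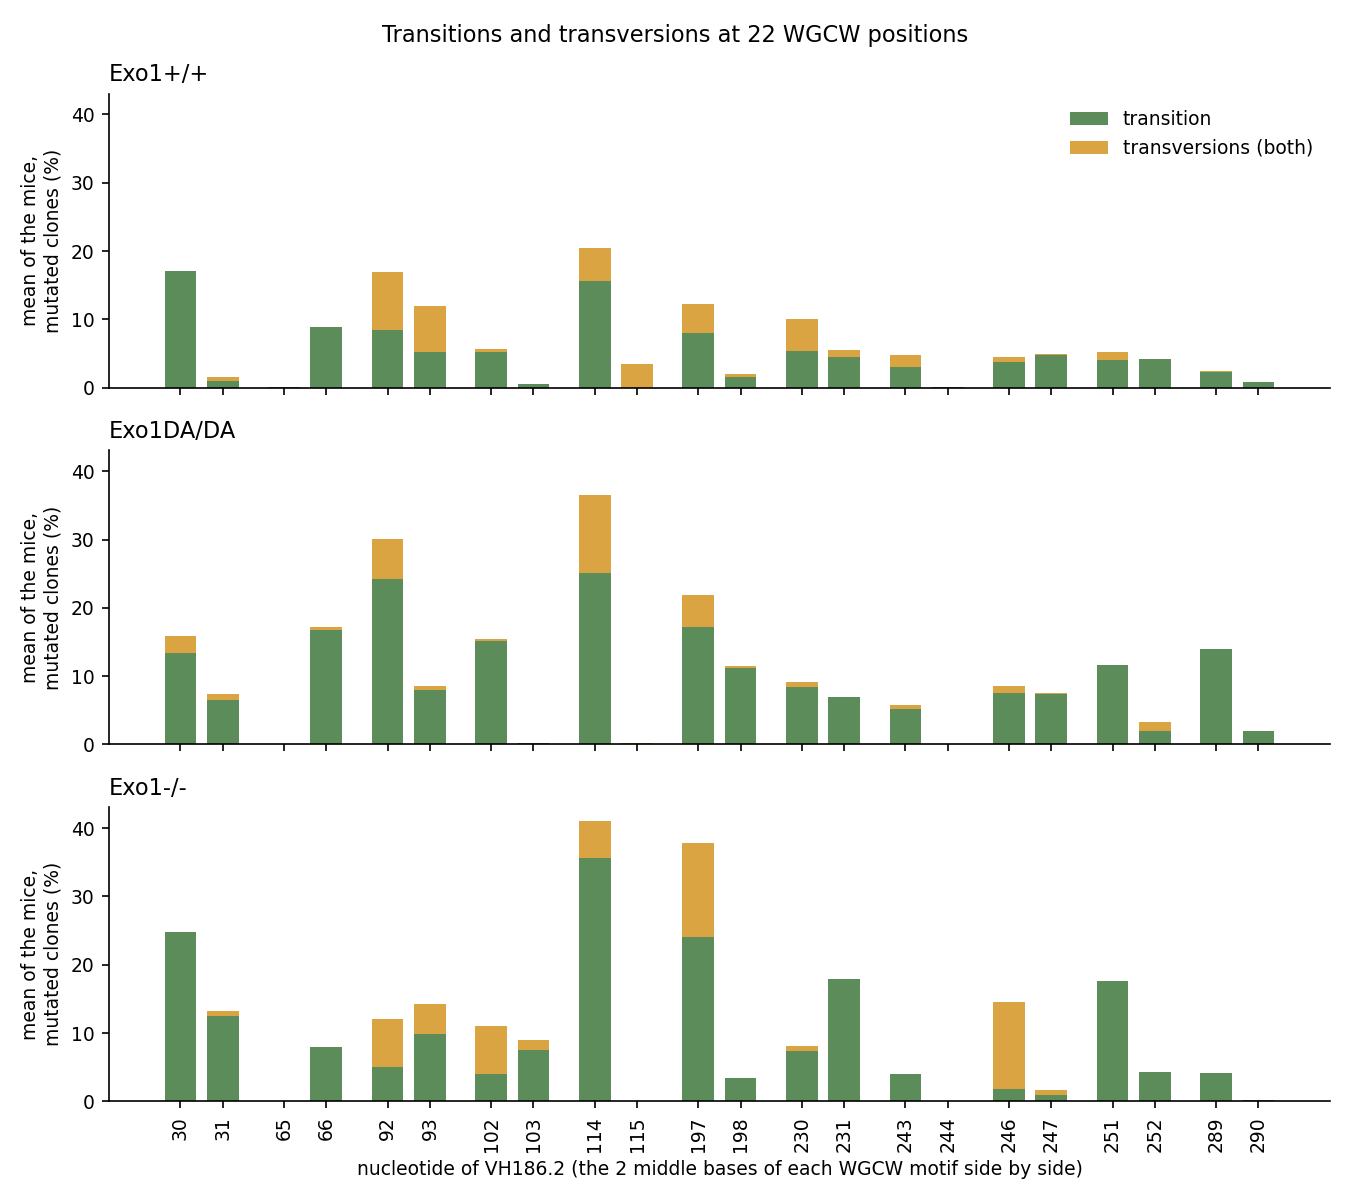
Mean percent of mutated clones of the mice (vertical axis) at 22 of the 24 WGCW positions (horizontal axis, nucleotide number), split into the transition and both transversions, for 7 Exo1+/+, 8 Exo1DA/DA and 3 Exo1-/- mice. Transversions are a large part at 92 and 93 in Exo1+/+ (8.39% is the transition part of 16.9% at 92) and at 246 in Exo1-/- mice.

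The changes were sorted by their outcome in the codon, and the levels of these kinds were not tested against each other. Of the 72 possible base changes at the 24 positions, 59 replace the amino acid, 10 are silent and 3 make a stop codon. The 10 silent changes, all transitions, each reached 1% of the clones in at least 1 mouse, and their mean level was 6.38%, 9.53% and 12.1% in Exo1+/+, Exo1DA/DA and Exo1-/- mice. The 12 transitions with a replacement were at 3.62%, 9.33% and 7.28%. The medians were 4.32%, 7.71% and 8.91% for the silent and 3.58%, 7.95% and 4.61% for the replacing transitions, so in Exo1DA/DA mice the means were nearly equal and the median of the replacing ones was the higher. Among the latter, the exception that stayed under 1% in all mice was G65A (C22Y).

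The 2 transitions to a stop, C115T and C244T, did not exceed 0.109% in any mouse, whereas the lowest maximum among the 10 silent transitions was 14.1%. The remaining stop change, the transversion C66A, reached 3.62% in mouse 303 (Exo1DA/DA). The 47 transversions with a replacement were at 1.05%, 0.775% and 1.26%, and 19 of them stayed under 1% in all mice. Of the 72 changes, 4 were found in 0 mice (G65C, C66G, C103G and G243C), which would allow up to 0.155% of the 1940 mutated clones of the 18 mice if all clones were independent. Clones can share a lineage and sequences are shared between mice, so this bound is too tight. By mouse, 41.6% ± 14.6, 38.7% ± 9.25 and 50.1% ± 9.64 of the WGCW changes were silent, with overlapping ranges.

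**Figure D5:**
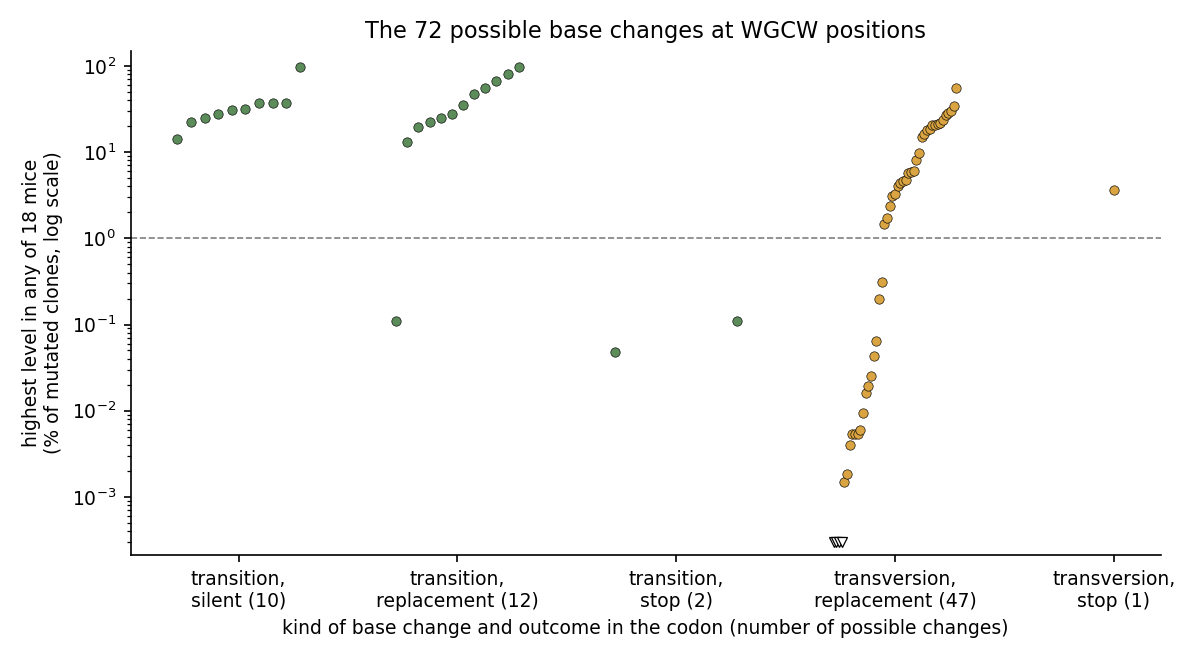
Highest level of each of the 72 possible base changes at WGCW positions in any of the 18 mice (vertical axis, percent of mutated clones, log scale), grouped by kind of change and outcome in the codon, with open triangles for the 4 changes found in 0 mice and a dashed line at 1%. The silent transitions lie at 14.1% or above and both transitions to a stop codon at 0.109% or below.

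By region, CDR1 with 1 of the 12 motifs held 17.5% ± 10.6, 15.2% ± 6.56 and 9.93% ± 0.321 of the WGCW changes of a mouse in Exo1+/+, Exo1DA/DA and Exo1-/- mice. The lowest Exo1+/+ value, 0.0445% in mouse 284, and the highest, 27.0% in mouse 290, lay on either side of the 3 Exo1-/- mice, which were within 9.64% to 10.3%. The remaining changes lay in the frameworks and at the start of CDR3, since CDR2 holds none of the motifs.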

How the data were processed

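The authors assembled paired MiSeq reads of VH186.2 cDNA from splenic B cells, merged reads with the same molecular identifier, took segment usage and CDR3 clones from IMGT/HighV-QUEST, and let 1 randomly drawn sequence stand for each clone in each of 1000 iterations (tool versions not given in the sources used here). The 3 deposited lists, 1 per genotype, hold 4885858, 4087642 and 2730772 lines, each a mutation of a drawn sequence with its nucleotide position and motif marks. Unmutated clones are not in the lists, so every percentage is per mutated clone.

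For each mouse the iterations were averaged, and the means over mice were compared with 2-sided exact permutation tests (2 times the smaller one-sided p) at all 276 positions and all base changes, and within mice by exact sign flips at all 23 GC dinucleotides, each with Benjamini-Hochberg adjustment. An unadjusted p under 0.05 was used as the call, with adjusted values beside it. The scripts (Python 3.11.15, NumPy 2.4.6, SciPy 1.17.1, pandas 2.3.3, Matplotlib 3.10.9) were tested on simulated data. Positions with a mean of at least 10% in a genotype or with a call, and the leading or called changes there, were named by rule. G65, C103, C115, G230, G243, C244 and the change C93G were chosen after their values were seen. The members, the rule and the lists were chosen with earlier results of these data known. Alternatives counted each distinct set of mutations or each lineage (Jaccard index of at least 0.7, 4 or more mutations) 1 time, removed sequences with 6 or more mutations shared between mice, used shares of mutations, subsets of iterations, the chi-squared test on pooled counts or ranks, and left out each mouse. The other definition of a 2-sided p was added after the data were seen. The single values and the sequence of 1 motif are not reported here.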

Additional observations from a re-analysis of the deposited data

Results flagged for a closer look

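Dixon's test set 5 of 44 sets of mouse values apart at the 95% level, and all 5 were the highest Exo1DA/DA mouse. The rate of 1 in 20 by chance holds for independent values of a normal distribution. Levels here are skewed and positions share clones, so that rate is no measure for the 5. In mouse 301 the most frequent WGCW pattern made up 93.0% of the mutated clones (95% Wilson interval 86.1% to 96.2%), against 45.5% in the next mouse. G289 was changed in 98.1% of its clones, against 5.6% in the next mouse. In mouse 300, which had 21.0 mutated clones, G251 was changed in 80.9%, against 4.02% in the next mouse. C231 was changed in 37.6% of the clones of mouse 296 (30.5% to 45%), against 6.21%, and the Exo1DA/DA mean was 2.50% without it. C93 was changed in 35.1% of the clones of mouse 302 (27.2% to 44.6%), against 14.6%, and the mean without it was 4.71%.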

How the results depend on the processing

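Of the 24 positions, 1 was called between Exo1DA/DA and Exo1+/+ mice, C198. Without shared sequences the 1 call was C103 in its place, at means of 0.00808% and 0.0184%. This count was 0 with each lineage counted 1 time and as a share of mutations. With absolute differences, the alternative added after the data were seen, this count was 0, beside 22 of all 276 positions, or 7.97%. It was 0 to 2 with 1 mouse left out (2 without mouse 301, nucleotides 197 and 198, and 1 without mouse 298 or 303, which was C103 or C115). Between Exo1-/- and Exo1+/+ it was 0, and 0 to 1 with 1 mouse left out (C115 without mouse 286). Between Exo1DA/DA and Exo1-/- it was 0, and 0 to 2 with 1 mouse left out (31 among them, without mouse 295). The chi-squared test on pooled counts called 16, 16 and 17 positions, and 24 and 32 base changes for Exo1DA/DA and Exo1-/- against Exo1+/+. The shares it called over all positions and all base changes of the amplicon are not given here. These chi-squared counts therefore say nothing particular to the WGCW positions. The 4 called changes of Exo1DA/DA became 1 in iterations 1 to 500, 3 in the later iterations and without shared sequences, 5 with lineages counted 1 time or ranks and 1 to 3 without single mice, and the 0 of Exo1-/- became 1 without shared sequences and 0 to 2 without single mice. For G minus C in Exo1+/+ mice the 5 calls became 2 with distinct sets counted 1 time, 2 without shared sequences and 2 to 4 without single mice, and the 3 of Exo1DA/DA became 1 to 3 without single mice, 4 in the last 500 iterations and 2 without shared sequences. Without single mice the p of a motif follows largely from how many mice share its sign. As percent of G:C mutations at WGCW positions the difference from Exo1+/+ was 3.12 points for Exo1DA/DA and 12.5 points for Exo1-/-. In changes per clone it was 1.10 and 1.48 without shared sequences, and 0.732 to 1.08 for Exo1DA/DA with 1 mouse left out, and -0.139 (without mouse 294) to 2.05 for Exo1-/-. Among the differences, motifs and changes with a call, 0 changed sign under the alternatives that kept all mice, while a call was lost 28 times. Differences without a call did change sign at some positions. With distinct sets counted 1 time 8 levels moved by more than 1 SD of the mice: G30 from 17.1%, 15.9% and 24.8% to 2.02%, 1.99% and 2.33% for Exo1+/+, Exo1DA/DA and Exo1-/-, G114 in Exo1+/+ from 20.5% to 8.01%, G197 in Exo1DA/DA from 21.9% to 5.74%, and in Exo1-/- C66 from 7.96% to 1.10%, G92 from 12.1% to 1.42% and C198 from 3.48% to 0.498%. No paired analysis was possible because the mouse numbers of the labels are not tied to the dataset numbers of the lists. Clone numbers of 21.0 to 323.9 per mouse and 3 Exo1-/- mice limit the precision.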
